A study of Mus musculus with 6 samples.

Results

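The genes described here are 7 genes of the MHC class II pathway, measured by RNA sequencing in CD8+ T cells sorted from infected mice. They were taken by name: Cd74, H2-Aa, H2-Ab1, H2-Eb1, H2-DMa, H2-DMb1 and Ciita. All 7 were found by their Ensembl gene IDs among the 13675 genes of the deposited table, and all 7 passed the filter on low values. The choice of genes used no measured value, but it was made with earlier results of these data known.

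MHC class II molecules are pairs of an α and a β chain that display peptides, mostly from proteins taken up from outside the cell, to CD4+ T cells. They are made mainly by B cells, dendritic cells and macrophages, and in mice conventional T cells make very little of them, so a sort of CD8+ T cells is a setting where a low level is usual. The genes are switched on together by CIITA, a coactivator that does not bind DNA itself but joins proteins already sitting on short promoter elements called the X and Y boxes.

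The study asked how the kinase CK2 acts in CD8+ T cells during infection. Donor cells of the CD45.2 type came from OT-I mice, whose transgenic T cell receptor recognises an ovalbumin peptide. The knockout-labelled cells (CK2αfl/fldLck-Cre) carried floxed alleles of the CK2α gene and a Cre recombinase driven by the distal promoter of Lck, a promoter used late in T cell maturation. The control-labelled cells (CK2αfl/fl) carried the same floxed alleles and no Cre in their label. Each kind was given to its own CD45.1 B6 hosts, which were infected with ovalbumin-expressing Listeria monocytogenes and no depletion of the hosts' own B cells or other antigen-presenting cells is named in the labels. After 7 days donor cells were collected from the spleen by their CD45 type, and 3 samples of each label were sequenced. Nothing in the labels ties the 3 samples of a group to different mice, and the p-values therefore describe only how these samples scatter, which may be technical scatter.

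Recovered reads ranged from 14746864 to 20140111 in the knockout-labelled libraries and from 18226879 to 22931296 in the control-labelled libraries. Csnk2a1, which encodes CK2α, was higher in the knockout-labelled libraries, at 2828, 2875 and 2786 normalized counts, against 1665, 1847 and 1645 in the control-labelled libraries (log2 fold change 0.72, limma, adjusted p = 0.000865). That goes against the label, although a count over the whole gene does not check the deletion of part of it, so the groups are named by label throughout. The labelled cell type was borne out by its markers: all 11 CD8+ T cell markers were listed, with Cd8a at 26324 ± 287 and 29213 ± 3461 normalized counts in knockout-labelled and control-labelled libraries (SD, n = 3 each). None of the 11 was called by limma, where 2.04% of all genes tested were called higher and 3.15% lower. At an unadjusted p below 0.05 there were 2, against 2926 of all 13654 genes tested. Of the 3 listed CD4+ T cell genes, Cd40lg was lower (38.9, 45.4 and 54.6 normalized counts against 164, 155 and 177 in controls; log2 fold change -1.82, limma, adjusted p = 0.000865). Cd4 itself lay between 11.9 and 21.0 in every library, and Zbtb7b, a transcription factor of the CD4+ lineage, measured 2228, 2414 and 2213, against 1914, 1596 and 2055 (log2 fold change 0.31, limma, adjusted p = 0.0975).

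All 7 class II genes had a higher mean in the knockout-labelled libraries, and in all 7 the highest values were those of knockout-labelled libraries 2 and 3. In those libraries Cd74 was 3.24 and 3.14 times its control mean, and Ciita 5.15 and 4.43 times. H2-DMa differed little, at 1.28 and 1.16 times, with knockout-labelled library 1 at 1.07 times. These multiples are on the scale of log2 of the normalized count plus 1. Knockout-labelled library 1 lay within the range of the controls for 6 of the 7 genes and below it for the other, H2-DMb1. In all 7, knockout-labelled libraries 2 and 3 lay above the 4 other libraries, an arrangement found in 8.44% of all genes tested and counted after the values were seen. The order of the 4 other libraries was not the same in all 7. None of the 7 passed the test between the labels over all 6 libraries (limma on log2 of the normalized count plus 1, adjusted p below 0.05). Over all 13654 genes tested, that threshold called 2.04% in the upward and 3.15% in the downward direction. At an unadjusted p below 0.05, 5 of the 7 were higher, against 10.2% of all genes tested. Count models on the recovered reads called 1 of the 7 each: Cd74 with edgeR (adjusted p = 0.0417), where 2.04% of genes were called higher, and H2-Aa with DESeq2 (adjusted p = 0.000767), where 3.22% were. A limma fit that weights each library by its fit to the rest called 5 of the 7 (all but H2-DMa and H2-DMb1), but it also called 9.63% of all genes higher.

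**Figure D1:**
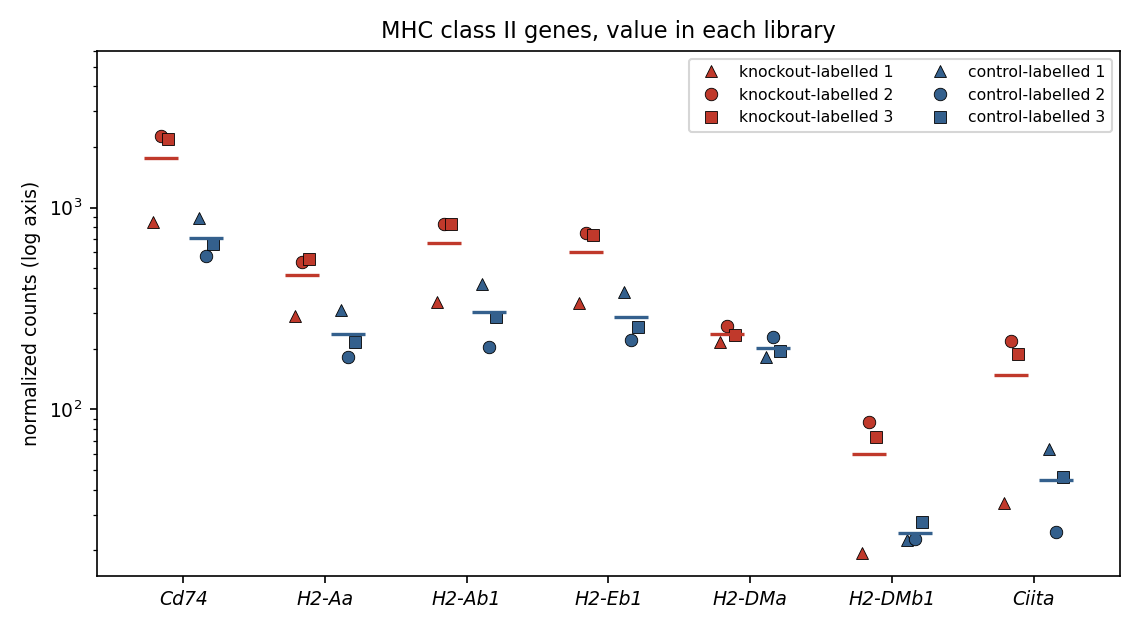
Normalized counts of the 7 class II genes (log axis) in each library, with the knockout-labelled libraries (red) left of the control-labelled ones (blue). Each point is 1 library and each line the mean of 3. Knockout-labelled libraries 2 and 3 are the highest points for every gene, and knockout-labelled library 1 lies among or below the controls.

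Cd74 encodes the invariant chain, which escorts new class II molecules through the cell and blocks their groove until peptide is loaded. It lies on chromosome 18. It measured 853, 2266 and 2196 normalized counts in the knockout-labelled libraries, against 894, 579 and 659 in the control-labelled libraries. Libraries 2 and 3 of the knockout label were high, while library 1 lay below control library 1, so the groups overlapped. The means were 1772 ± 797 and 711 ± 164 (SD, n = 3 each), a log2 fold change of 1.21 (SE 0.32, 95% interval 0.50 to 1.92, limma, adjusted p = 0.0566).

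The chains of the class II molecules themselves were highest in the same libraries. H2-Aa (GRCm38 chromosome 17, 34282744 to 34287823, minus strand), the α chain of I-A, measured 291, 537 and 558 normalized counts in the knockout-labelled libraries, against 311, 181 and 216 in controls. H2-Ab1 (chromosome 17, 34257689 to 34269419, plus strand), its β chain partner, measured 339, 829 and 827, against 420, 204 and 286. The α and β chains of I-A thus shared their 2 high libraries, and in both genes control library 1 was above knockout-labelled library 1. H2-Eb1 (chromosome 17, 34305867 to 34316674, plus strand), the β chain of I-E, measured 336, 746 and 736, against 381, 221 and 257. B6 mice carry a broken gene for the α chain of I-E and so do not display I-E on the cell surface, yet the β chain transcript kept step with the I-A chains. Log2 fold changes were 0.94 (SE 0.25, 95% interval 0.38 to 1.51) for H2-Aa, 1.08 (SE 0.34, 0.33 to 1.83) for H2-Ab1 and 1.03 (SE 0.29, 0.38 to 1.68) for H2-Eb1, with limma adjusted p of 0.0624, 0.102 and 0.0743.

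H2-DMa and H2-DMb1 encode the chains of H2-DM, which sits in endosomes and exchanges the last fragment of the invariant chain for peptide. H2-DMa (chromosome 17, 34119541 to 34139101, plus strand) measured 216, 258 and 234 normalized counts in the knockout-labelled libraries, against 183, 228 and 194 in controls. Its groups overlapped and its spread was small, with a log2 fold change of 0.23 (SE 0.13, 95% interval -0.06 to 0.52, limma, adjusted p = 0.354). H2-DMb1 (chromosome 17, 34153072 to 34160230, plus strand) measured 19.5, 87.0 and 73.4, against 22.5, 22.8 and 27.7. Here the knockout-labelled group held both the highest values and the lowest, and the log2 fold change of 1.02 carried an SE of 0.48 (95% interval -0.04 to 2.08, adjusted p = 0.249). The partners were therefore unlike in these libraries: per kilobase of exon, H2-DMa was 5.41, 1.45 and 1.55 times H2-DMb1 in the knockout-labelled libraries, against 3.97, 4.88 and 3.43 times in controls. H2-DMb1 values rest on 21 to 74 reads, and a near-identical neighbour, H2-DMb2, can share reads with it, so its level is uncertain. H2-DMa shares 360 of its 3448 exonic bases with Brd2 on the other strand, which was far more abundant (7073 to 7922 and 7863 to 8862 normalized counts in knockout-labelled and control-labelled libraries). Whether the counting used strand is not given in the sources used here, so part of the H2-DMa level may be Brd2 reads.

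Ciita (chromosome 16, 10480059 to 10528418, plus strand), the coactivator of the other genes, had the widest spread of the 7. It measured 34.3, 219 and 188 normalized counts in the knockout-labelled libraries, against 63.4, 24.8 and 46.1 in controls. Knockout-labelled library 1 lay between controls 2 and 3, and libraries 2 and 3 were above all controls. The log2 fold change was 1.41 (SE 0.61, 95% interval 0.06 to 2.76, limma, adjusted p = 0.213). The gene shares 329 of its 9535 exonic bases with Dexi on the other strand. Dexi lay between 302 and 330 normalized counts in the knockout-labelled libraries and between 307 and 349 in controls. The part of Dexi reads in the Ciita level was not tested.

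The controls also had an order of their own. Cd74, H2-Aa, H2-Ab1, H2-Eb1 and Ciita were each highest in control library 1, then 3, then 2. H2-DMa ran the other way and was highest in control library 2, and H2-DMb1 was highest in control library 3. Class II transcripts thus differed between libraries within both labels, and for the 6 genes other than H2-DMa the span from lowest to highest library was wider within the knockout label.

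Per kilobase of exon, the order of the members was the same in the means of both groups. Cd74 was the most abundant, at 1055 ± 475 normalized counts per kilobase in knockout-labelled and 423 ± 97.6 in control-labelled libraries (SD, n = 3 each), followed by H2-Eb1 (312 ± 120 and 147 ± 43.2) and H2-Ab1 (259 ± 110 and 118 ± 42.4). H2-Aa came next (122 ± 39.1 and 62.2 ± 17.6), then H2-DMa (68.5 ± 6.18 and 58.5 ± 6.80), H2-DMb1 (35.7 ± 21.2 and 14.5 ± 1.72) and Ciita (15.5 ± 10.4 and 4.69 ± 2.03). H2-Eb1 and H2-Ab1 differed by less than their spread in both groups, as did H2-DMb1 and Ciita in the knockout-labelled group and H2-Aa and H2-DMa in controls. On the same scale the class I heavy chain gene H2-K1 averaged 23838 and 27960, so Cd74 amounted to 2.18%, 5.07% and 6.04% of H2-K1 in the knockout-labelled libraries, against 1.81%, 1.41% and 1.31% in controls.

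Ratios between members show which moved in step. Per kilobase of exon, H2-Aa stayed between 0.438 and 0.601 of H2-Ab1, H2-Eb1 between 1.18 and 1.43 of it, and Cd74 between 3.26 and 4.34 times it over the 6 libraries. Ciita did not keep step: it was 0.0272, 0.0712 and 0.0614 of H2-Ab1 in the knockout-labelled libraries, against 0.0406, 0.0327 and 0.0434 in controls. Relative to the chain genes, Ciita was thus highest in the libraries where those genes were highest.

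Leaving out libraries showed how far the result rests on each. Without knockout-labelled library 1, 6 of the 7 genes passed (limma, adjusted p below 0.05), against 1.54% of all genes tested called higher. The log2 fold changes were then 1.67 for Cd74 (adjusted p = 0.00277), 1.25 for H2-Aa (0.0197), 1.51 for H2-Ab1 (0.0197), 1.41 for H2-Eb1 (0.0124), 1.68 for H2-DMb1 (0.0158) and 2.26 for Ciita (0.0165). H2-DMa stayed at 0.29 (adjusted p = 0.344). Without control library 1 only H2-Aa passed (log2 fold change 1.16, adjusted p = 0.0391; 1.26% of all genes called higher), and without control library 2 only Cd74 did (1.08, adjusted p = 0.0412; 7.68% of all genes). With knockout-labelled libraries 2 and 3 both left out, knockout-labelled library 1 alone was set against the controls, on the assumption that it varies as they do. None of the 7 was then called, the log2 fold changes of Cd74, H2-Aa, H2-Ab1, H2-Eb1 and H2-DMa lay between 0.10 and 0.34, and those of H2-DMb1 and Ciita were below 0, at -0.30 and -0.28.

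**Figure D2:**
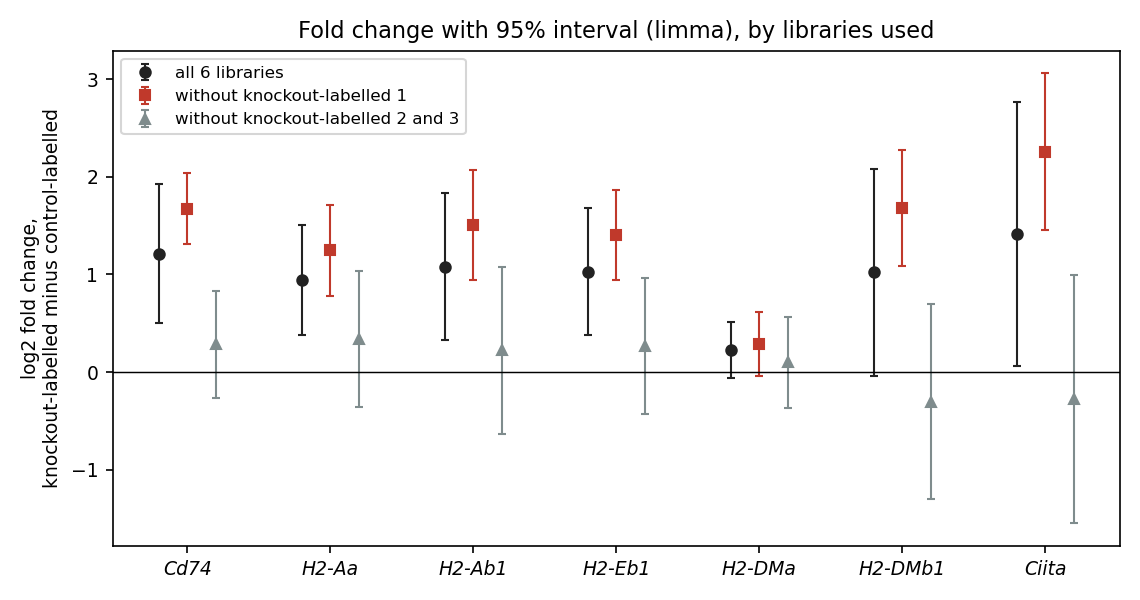
Log2 fold change, knockout-labelled minus control-labelled libraries, of the 7 class II genes with 95% intervals from limma, fitted with all 6 libraries (black), without knockout-labelled library 1 (red) and without knockout-labelled libraries 2 and 3 (grey). With all 6 libraries every estimate lies above 0, from 0.23 for H2-DMa to 1.41 for Ciita. Estimates without library 1 lie higher for each gene, and every interval without libraries 2 and 3 includes 0.

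The genes of the class II region carry the elements that RFX proteins (X box) and NF-Y (Y box) bind, and CIITA acts through these. Promoter stretches are printed for the genes of the region that RefSeq's promoter table on GRCm38.p6 holds, to show what the genes of this group have in common; 4 of the 7 members had an entry, of which 3 are shown beside 4 other class II genes. Each stretch is 73 bases, read 5′ to 3′ on the strand of the gene, with capitals marking the X box, the Y box (ATTGG) and, in H2-Aa, the cyclic AMP response element TGACGTCA, which was looked for after the sequence had been read. The X box searched is the capital run of 11 letters in H2-Eb1 with its letters 3, 4 and 7 free to vary, and it was marked with at most 1 mismatch in the other letters.
H2-Aa (chr17:34287859-34287931, minus strand): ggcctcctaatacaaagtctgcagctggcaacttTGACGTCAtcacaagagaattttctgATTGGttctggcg
H2-Eb1 (chr17:34305748-34305820, plus strand): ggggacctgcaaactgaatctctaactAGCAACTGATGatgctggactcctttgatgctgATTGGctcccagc
H2-DMb1 (chr17:34153070-34153142, plus strand): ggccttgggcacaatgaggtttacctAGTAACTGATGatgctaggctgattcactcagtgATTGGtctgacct
H2-DMb2 (chr17:34145099-34145171, plus strand): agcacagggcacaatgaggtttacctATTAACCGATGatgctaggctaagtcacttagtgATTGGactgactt
H2-Eb2 (chr17:34325515-34325587, plus strand): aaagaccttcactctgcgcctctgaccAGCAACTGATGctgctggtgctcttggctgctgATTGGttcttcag
H2-Oa (chr17:34092276-34092348, plus strand): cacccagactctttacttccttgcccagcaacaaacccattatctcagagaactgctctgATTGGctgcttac
H2-Ob (chr17:34238788-34238860, plus strand): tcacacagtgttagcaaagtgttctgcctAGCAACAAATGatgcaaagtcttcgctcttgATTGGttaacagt

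The 7 genes shown are those with a Y box on the gene strand in their only window, and the stretches were cut around it, so its presence is no finding. It lay 43 to 100 bases before the annotated start. H2-DMa, not shown, had 2 windows for different starts, of which 1 held a Y box and neither an X box within 1 mismatch. In the stretches shown, an X box lay upstream of the Y box in 5 of the 7, with 20 to 23 bases between the boxes. Of the 5, 3 (H2-Eb1, H2-DMb1 and H2-Eb2) matched every fixed letter. The match in H2-Eb1 was fixed in advance, because the letters searched were taken from it, so it is no finding in either count. In the H2-Aa stretch no X box within 1 mismatch was found, and the cyclic AMP response element, the type of site CREB proteins bind, lay 74 bases before the start and upstream of the Y box. Over the 32851 promoter windows of 300 bases in the table, searched on both strands, 37.4% held a Y box, 0.968% an X box with every fixed letter, 20.8% an X box with at most 1 mismatch and 1.79% the cyclic AMP response element. An X box with at most 1 mismatch followed by a Y box 10 to 40 bases on, on the strand of the gene, was in 0.314%. A match describes letters in these windows and is not evidence of binding. Among genes with this arrangement the contrast between libraries varied in size, as the values of H2-Ob below show.

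**Figure D3:**
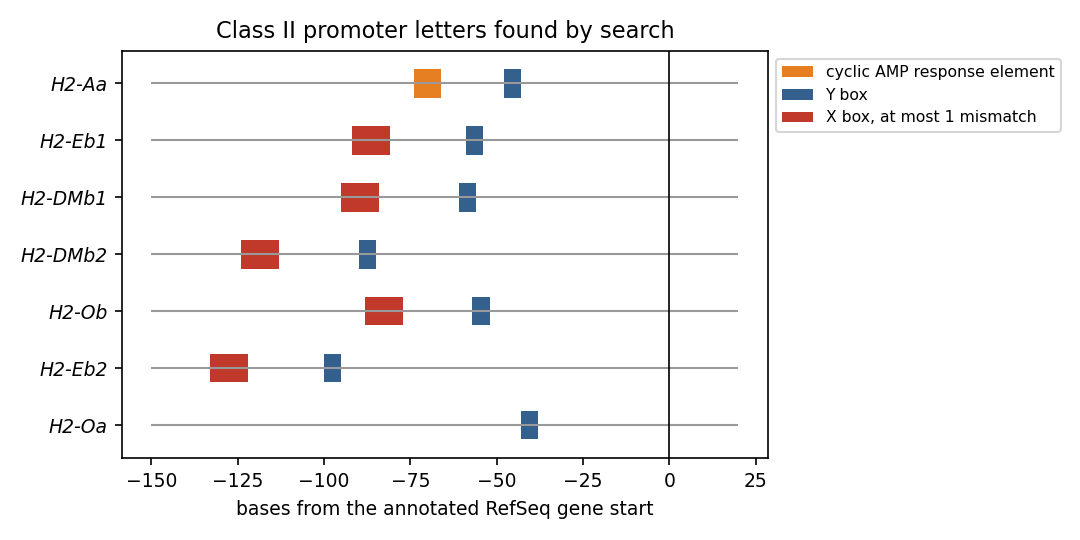
Position of the X box (at most 1 mismatch), the cyclic AMP response element and the Y box in the 7 promoter stretches, in bases before the annotated start of each gene. The Y box lies 43 to 100 bases before the start in all 7, with an X box upstream of it in 5, among them H2-Eb1, whose letters set the search.

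The other class II chain genes in the table gave 5 further readings, and 0 of the 5 were called by limma in either direction. Over all genes tested, 2.04% were called higher and 3.15% lower. At an unadjusted p below 0.05, 3 of the 5 were higher, against 10.2% of all genes tested. Their median log2 fold change was 0.61, against 0.01 over all genes tested. H2-DMb2, which encodes a second β chain for H2-DM, measured 21.3, 166 and 162 normalized counts in the knockout-labelled libraries, against 37.8, 21.8 and 27.7 in controls, and thus, like H2-DMb1, was highest in knockout-labelled libraries 2 and 3 and lowest in library 1. H2-Eb2, a further β chain of the I-E type, measured 7.41, 41.6 and 41.7, against 17.4, 2.97 and 3.35, on 3 to 42 reads. H2-Oa and H2-Ob encode H2-DO, which restrains H2-DM and is known chiefly from B cells. H2-Oa did not overlap between the groups (152, 210 and 172, against 96.1, 148 and 107; limma, adjusted p = 0.0985), as was the case for 12.0% of all genes tested in that direction. H2-Ob did overlap, with 140, 382 and 323, against 241, 165 and 196. H2-Ea-ps, the broken I-E α gene of B6 mice, was the one of the 5 in which knockout-labelled libraries 2 and 3 were not the highest, with 64.9, 29.0 and 36.7, against 46.0, 26.8 and 45.3. Those libraries thus lay above the 4 other libraries in 4 of the 5 genes (80.0%), against 8.44% of all genes tested.

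Among the factors that act at class II promoters, knockout-labelled libraries 2 and 3 lay above the 4 other libraries in 4 of 11 genes (36.4%, against 8.44% of all genes tested), namely Nfya, Spi1, Irf8 and Pou2af1. Of the 11 genes, 1 was higher (Irf8) and 1 lower (Creb1) in the knockout-labelled libraries, against 2.04% and 3.15% of all genes tested. A positive log2 fold change was found in 4 of the 11, and the median was -0.05. Irf8, an interferon regulatory factor of B and myeloid cells, measured 534, 692 and 670 normalized counts, against 401, 509 and 399 in controls (log2 fold change 0.53, SE 0.13, limma, adjusted p = 0.0435). Creb1, whose product binds cyclic AMP response elements, measured 2741, 2426 and 2666, against 3129, 3393 and 3144 (log2 fold change -0.30, SE 0.07, adjusted p = 0.0410). Both calls were close to the threshold and held in 2 and 1 of the 6 fits that left out 1 library. The gene of this list with the widest spread was Pou2af1, a coactivator of B cells, at 118, 595 and 556 in the knockout-labelled libraries, against 161, 115 and 64.5 in controls (limma, adjusted p = 0.113). Spi1, which encodes PU.1 of B and myeloid cells, measured 27.8, 74.4 and 67.5, against 31.7, 20.8 and 35.2. In the RFX genes Rfx5, Rfxap and Rfxank, libraries 2 and 3 of the knockout label were not the highest pair.

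Interferon-γ is the textbook inducer of Ciita outside professional antigen-presenting cells, through its receptor and the kinases JAK1 and JAK2. Of 7 genes on this route, 2 were lower in the knockout-labelled libraries and 0 were higher, against 3.15% and 2.04% of all genes tested. Their median log2 fold change was -0.07. Ifngr1, the ligand-binding receptor chain, measured 3786, 3787 and 3479 normalized counts, against 4782, 5373 and 5418 in controls (log2 fold change -0.49, SE 0.07, limma, adjusted p = 0.00616), and was called in all 6 fits that left out 1 library. Jak1 measured 34138, 34509 and 32671, against 46524, 43898 and 49780 (log2 fold change -0.47, SE 0.09, adjusted p = 0.0141), and was called in 3 of those 6. In both genes the 3 knockout-labelled libraries lay close together and below every control, as in 1882 of all 13654 genes tested. Ifng, the ligand, spanned 2059 to 2772 in the knockout-labelled libraries and 1953 to 3403 in controls. The part of this route in the class II result was not tested.

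Of 10 genes for antigen processing and class II turnover, 0 were higher and 1, Ctsd, was lower, against 2.04% and 3.15% of all genes tested. The median log2 fold change was 0.18. Ctsd, a lysosomal aspartic protease, measured 15044, 14694 and 13390 normalized counts in the knockout-labelled libraries, against 19152, 18137 and 19522 in controls (log2 fold change -0.40, SE 0.08, limma, adjusted p = 0.0170), and held in 2 of the 6 fits that left out 1 library. Ifi30, the thiol reductase of endosomes, had a log2 fold change of 0.47 (adjusted p = 0.119), and Ctss, the protease that trims the invariant chain, one of 0.20 (adjusted p = 0.231). In both genes every knockout-labelled library lay above every control, as in 12.0% of all genes tested, and library 1 was the highest. Per kilobase of exon, Ifi30 was at 435, 370 and 369 in the knockout-labelled libraries, against 258, 364 and 238 in controls. Ctss was at 1438, 1200 and 1161 on that scale, against 1068, 1129 and 1104. Knockout-labelled libraries 2 and 3 lay above the 4 other libraries in 1 of the 10 genes, against 8.44% of all genes tested. In a list of 10, a count of 1 is close to that share. The gene was March1, a ubiquitin ligase that removes class II from the surface and was looked at after its values were seen. March1 measured 14.8, 50.4 and 61.5 normalized counts in the knockout-labelled libraries, against 25.6, 11.9 and 19.3 in controls.

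Genes of the class I pathway, which displays peptides to CD8+ T cells, were read in the same way. Of 14 genes, none was called in either direction by limma, where 2.04% of all genes tested were called higher and 3.15% lower. The median log2 fold change was 0.04. At an unadjusted p below 0.05 there were 3, against 2926 of all 13654 genes tested. In none of the 14 were knockout-labelled libraries 2 and 3 the highest of all, an arrangement found in 8.44% of all genes tested. In a list of 14, a count of 0 is close to that share. H2-K1 measured 68279, 78227 and 63598 normalized counts in the knockout-labelled libraries, against 86461, 71751 and 88227 in controls. Nlrc5, a relative of CIITA that drives class I genes in place of class II genes, averaged 8916 ± 710 and 10715 ± 751 (SD, n = 3 each), a log2 fold change of -0.27 (limma, adjusted p = 0.102). Ciita and Nlrc5 thus had log2 fold changes of opposite sign, neither of them past the test.

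Markers of B cells were highest in the same libraries as the class II genes. In all 14 of 14 markers, knockout-labelled libraries 2 and 3 lay above the 4 other libraries, against 8.44% of all genes tested. Cd79a, a signalling chain of the B cell receptor, measured 49.1, 291 and 304 normalized counts in the knockout-labelled libraries, against 79.7, 57.5 and 49.4 in controls. Ms4a1, which encodes CD20, measured 25.0, 447 and 344, against 75.6, 33.7 and 35.2. Knockout-labelled library 1 was thus below the controls for both, and libraries 2 and 3 were above them. Of the 14 markers, 3 were called higher and none lower by limma, against 2.04% and 3.15% of all genes tested. At an unadjusted p below 0.05, 12 of the 14 were higher, against 10.2% of all genes tested. The median log2 fold change was 1.49.

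The 3 B cell markers that rose were Cd22, Ighm and Igkc, and in each knockout-labelled library 1 was also above every control, as in 1 other marker (Ebf1). The groups thus did not overlap in 4 of the 14 markers, against 12.0% of all genes tested in that direction. Cd22, an inhibitory receptor, measured 734, 1090 and 1045 normalized counts in the knockout-labelled libraries, against 328, 320 and 302 in controls (log2 fold change 1.57, limma, adjusted p = 0.000465). Ighm, the heavy chain of IgM, measured 4784, 5325 and 4931, against 2883, 3518 and 2903 (log2 fold change 0.70, adjusted p = 0.00270). Igkc, the κ light chain, measured 399, 1204 and 966, against 315, 226 and 286 (log2 fold change 1.50, adjusted p = 0.0276), and unlike Cd22 and Ighm, called in all 6 fits that left out 1 library, it was called in 3. The summed level of the 14 markers was 6324, 9952 and 9046 in the knockout-labelled libraries, against 4049, 4520 and 3934 in controls. Ighm made up most of that sum in every library, and the median marker of knockout-labelled library 1 deviated by -0.04 (log2) from the control mean. The part of these transcripts in the class II result was not tested, and in bulk RNA a different number of cells of a type cannot be told apart from a different amount of RNA per cell.

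**Figure D4:**
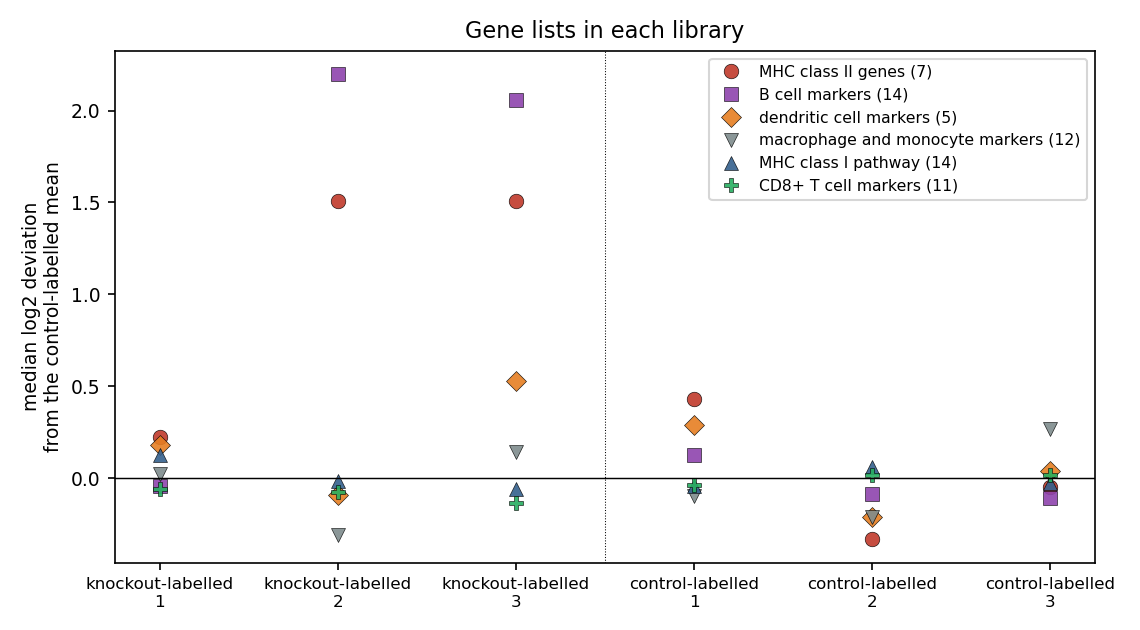
Median log2 deviation from the control mean in each library for the class II genes and for lists of B cell, dendritic cell, macrophage and CD8+ T cell markers and class I genes. Each point is the median over the genes of a list. The class II genes reach 1.51 in knockout-labelled libraries 2 and 3 and 0.22 in library 1, and the B cell markers 2.20 and 2.06 in libraries 2 and 3 and -0.04 in library 1.

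**Figure D5:**
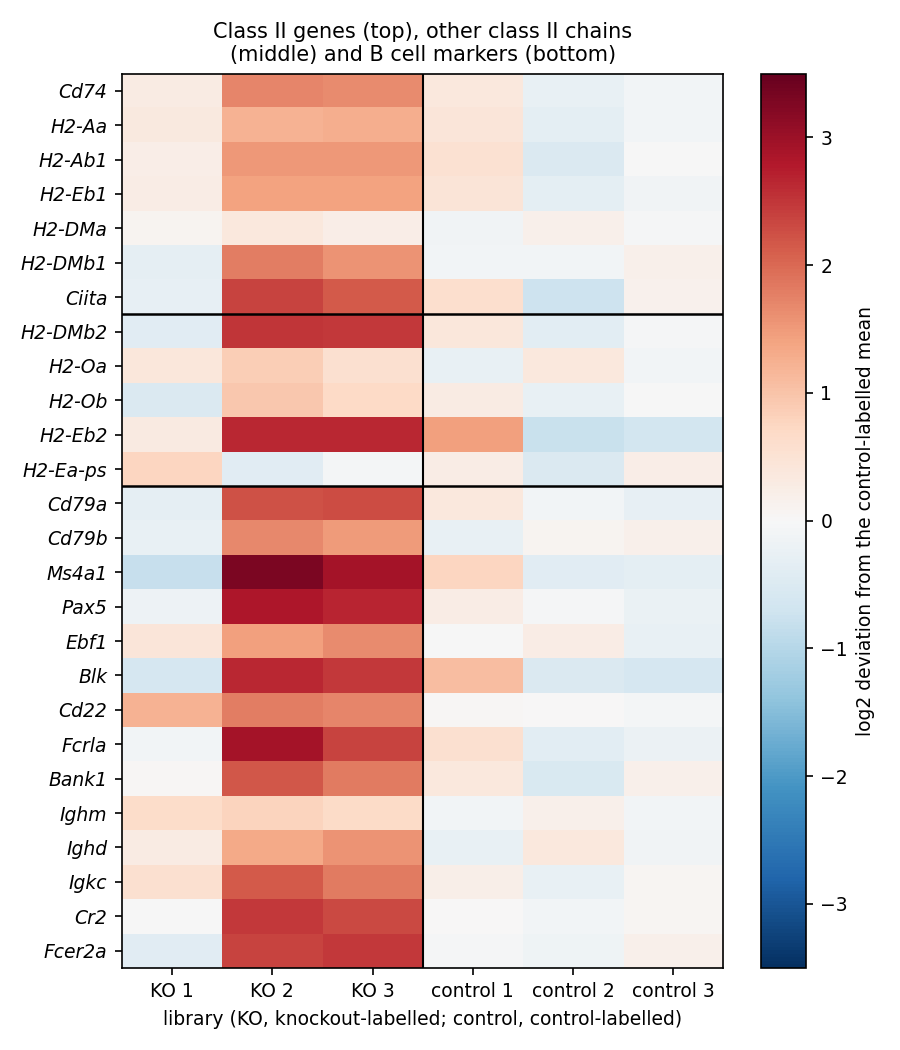
Log2 deviation from the control-labelled mean (colour) of the 7 class II genes, 5 other class II chain genes and 14 B cell markers in each library, with knockout-labelled libraries on the left. The columns of knockout-labelled libraries 2 and 3 are red for all 3 blocks, with H2-DMa pale and H2-Ea-ps as the exception, and the column of library 1 is pale but for a few genes such as Cd22.

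The class II genes were not in constant proportion to the B cell markers. In normalized counts, Cd74 was 17.4, 7.78 and 7.24 times Cd79a in the knockout-labelled libraries, against 11.2, 10.1 and 13.3 times in controls. H2-Ab1 was 6.91, 2.85 and 2.73 times Cd79a, against 5.27, 3.55 and 5.78 times. H2-DMa was 4.40, 0.887 and 0.771 times Cd79a, against 2.29, 3.97 and 3.93 times. Each of these 3 ratios was lowest in knockout-labelled libraries 2 and 3, where both terms were highest, and highest in knockout-labelled library 1. H2-DMb1 and Ciita differed. H2-DMb1 was 0.396, 0.299 and 0.242 times Cd79a, against 0.282, 0.397 and 0.559 times. Ciita stayed between 0.621 and 0.753 times Cd79a in the knockout-labelled libraries, within the 0.431 to 0.932 of the controls.

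Knockout-labelled libraries 2 and 3 lay above the 4 other libraries in 2 of 5 dendritic cell markers and in 1 of 12 macrophage and monocyte markers, against 8.44% of all genes tested. Of 12 dendritic cell markers 5 were in the table, and Clec9a, Batf3, Siglech, Cd209a, Clec10a, Ccl22 and Cd209d were not among its genes. Flt3, a receptor of dendritic cell precursors, was at 10.2, 32.8 and 20.8 normalized counts in the knockout-labelled libraries, against 8.18, 4.96 and 6.70 in controls, and Zbtb46, which marks conventional dendritic cells, at 18.5, 15.1 and 23.8, against 21.5, 13.9 and 14.2. The 2 were Flt3 and Wdfy4, which serves cross-presentation in dendritic cells and measured 90.8, 229 and 217, against 140, 64.5 and 92.2. None of the 5 dendritic cell markers was called by limma, where 2.04% of all genes tested were called higher and 3.15% lower. At an unadjusted p below 0.05, 2 of the 5 were higher, against 10.2% of all genes tested. Their summed level was 507 to 582 in the knockout-labelled and 439 to 534 in the control-labelled libraries. Naaa, an acid amidase, held a large part of that sum, at 276, 247 and 229, against 272, 272 and 298. Of 13 macrophage and monocyte markers 12 were listed, and their median log2 fold change was -0.09. Csf1r measured 109, 93.3 and 127, against 122, 83.3 and 117, and Adgre1 42.6, 30.2 and 43.6, against 38.8, 25.8 and 47.8. Cd68 was called higher, at 750 ± 138 normalized counts against 495 ± 86.7 in controls (SD, n = 3 each), with a log2 fold change of 0.60 (limma, adjusted p = 0.0486), a call that held in 1 of 6 fits that left out 1 library. The summed level of the 12 was 1937 to 2125 in the knockout-labelled and 1642 to 2013 in the control-labelled libraries. Of the listed neutrophil (3), erythroid (5) and natural killer cell (1) markers none was called. All 3 neutrophil markers were higher at an unadjusted p below 0.05 (limma), against 10.2% of all genes tested. They summed to 200, 266 and 260 normalized counts in the knockout-labelled libraries, against 74.6, 122 and 204 in controls. In 2 of the 3 (66.7%), knockout-labelled libraries 2 and 3 lay above the 4 other libraries, against 8.44% of all genes tested. The part of all these markers in the class II result was not tested.

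The genes most like the class II genes over the 6 libraries were found by Pearson correlation of log2 values with the mean of the 7, among the 10509 other genes whose mean reached 50 normalized counts. The correlation is a description over libraries that fall into unlike sets, and knockout-labelled libraries 2 and 3 set most of it. The 10 highest, between 0.980 and 0.999, were Nuggc, Blnk, Chst3, Scd1, Tecpr2, Pde4a, Mtss1, H2-DMb2, Jchain and Slc25a26. A correlation takes no account of size: their log2 fold changes ran from 0.15 for Slc25a26 to 2.18 for Nuggc. Among the members, H2-DMa correlated with the mean of the other members at 0.586, against 0.919 to 0.993 for the rest. Blnk encodes an adaptor of B cell receptor signalling, Jchain the chain that joins IgM and IgA units, and Nuggc a nuclear GTPase of germinal centre B cells. None of the 10 was on the list of B cell markers, whose nearest members were Igkc at rank 13, Pax5 at 16, Cr2 at 22 and Cd79a at 23. Of the 10, Jchain alone was called between the labels (log2 fold change 1.61, limma, adjusted p = 0.0314).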

How the data were processed

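RNA from 3 knockout-labelled and 3 control-labelled samples was sequenced, and the deposited table holds a linear signal per gene that its sheet calls normalized counts: per sample, the authors appear from the values to have divided gene counts by a common factor. Division by the step of each column made 100% of values whole (tolerance 0.01), where 1.43% to 1.76% had been whole as deposited. In knockout-labelled library 3 and control-labelled library 2 this step is near 1, so there the recovery rests on division alone. The submitters' processing notes name mm10, also called GRCm38; aligner, counting program and strand setting are not given in the sources used. Of the 13675 IDs, 13648 were matched to a GENCODE M21 symbol. Replicates all differed by more than counting noise (chi-square at least 5.32 per degree of freedom).

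Knockout-labelled minus control-labelled libraries were tested with limma 3.58.1 in R 4.3.3 (two-sided, with a variance trend) after adding a pseudocount of 1 and taking log2, which understates the change of low genes, for genes with a mean of at least 10, with Benjamini-Hochberg adjustment over all 13654. Every p not otherwise named is from it. edgeR 4.0.16 (quasi-likelihood) and DESeq2 1.42.0 were run on the recovered reads as alternatives, beside pseudocounts of 0.5 and 5, other filters (none, mean 50), array weights, a replicate block, quantile normalization, TMM factors, no variance trend and leaving out libraries. Simulated counts with known changes were used to test the limma code. The members, gene lists and alternatives were chosen with earlier results of these data known, so no list was tested as a set. Genes named are the 7 members, from each other list those called (at most 5) or, with fewer than 3 called, those with the 3 smallest p, the defining markers, the 10 genes most like the members and the CK2 subunit genes. From the neutrophil, erythroid, natural killer, CD4+ and CD8+ T cell lists only counts and single genes are given, and March1, Ifng, Cd40, Cd80, Icosl, Pax5, Cr2 and the other non-members outside this rule were added after their values were seen. Some genes that the rule and lists take in are not reported here and were left out of the lists' counts. Promoters came from RefSeq (GRCm38.p6), 250 bases before to 50 after each start.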

Additional observations from a re-analysis of the deposited data

How the results depend on the processing

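Over the 18 alternatives, 5 of the 7 class II genes kept a positive log2 fold change in every fit, and H2-DMb1 and Ciita turned to -0.30 and -0.28 only where knockout-labelled libraries 2 and 3 were both left out. H2-DMb1 has no value with the filter at a mean of 50. The count of genes called (708) moved to 141 with no variance trend, to 2676 with array weights, to between 200 and 2028 in the fits that left out 1 library, and to 0 by limma without knockout-labelled libraries 2 and 3 (1861 at an unadjusted p below 0.05). edgeR called 652 and DESeq2 1023. Of the 7 class II genes 1 was called by edgeR (Cd74, log2 fold change 1.33), 1 by DESeq2 (H2-Aa, 0.97) and 5 with array weights (Cd74 1.36, H2-Aa 1.04, H2-Ab1 1.16, H2-Eb1 1.15 and Ciita 1.51). Leaving out 1 library gave 0 to 6 calls, with log2 fold changes of 0.97 to 1.67 for Cd74, 0.77 to 1.25 for H2-Aa, 0.83 to 1.51 for H2-Ab1, 0.83 to 1.41 for H2-Eb1, 0.16 to 0.32 for H2-DMa, 0.63 to 1.68 for H2-DMb1 and 0.94 to 2.26 for Ciita. The causes of these moves were not tested.

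Same-numbered libraries did not pair (correlations of deviations -0.544, -0.270 and -0.235). A fit with the replicate number as a block called 197 genes and none of the 7. TMM factors shifted the median of all genes to 0.02 and quantile normalization to -0.0051, against 0.01.

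Without knockout-labelled libraries 2 and 3, the log2 fold change also turned sign for H2-DMb2 (-0.40), Wdfy4 (-0.051), Scd1 (-0.10), Tecpr2 (-0.0040), Pde4a (-0.013), Mtss1 (-0.11), Slc25a26 (-0.0031), Cd79a (-0.31) and Ms4a1 (-0.82). Genes near 0 turned elsewhere: Csnk2a2 with TMM factors (0.0074), quantile normalization (0.026), edgeR (0.0084) and leaving out 1 library (-0.0247 to 0.0152), and Csnk2b on leaving out 1 library (-0.048 to 0.089). Csf1r turned with quantile normalization (-0.070), array weights (-0.028) and leaving out 1 library (-0.13 to 0.15), and Adgre1 likewise (-0.020, -0.13, and -0.16 to 0.27). H2-Eb2 rests on 3 to 42 reads a library and H2-DMb1 on 21 to 74, so counting error is large for both.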

Other observations

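Surface molecules that antigen-presenting cells use beside class II were split in their order of libraries. Of 5 such genes (Cd80, Cd86, Cd40, Icosl and Cd83) none was called by limma in either direction. Over all genes tested, 2.04% were called higher and 3.15% lower. At an unadjusted p below 0.05, 3 of the 5 were higher, against 10.2% of all genes tested. Their median log2 fold change was 0.54. Cd83, which stabilises class II on the surface, measured 37.1, 103 and 103 normalized counts in the knockout-labelled libraries, against 39.9, 34.7 and 26.0 in controls (log2 fold change 1.13, limma, adjusted p = 0.117). Cd40, the receptor through which T cells help B cells, measured 6.49, 25.2 and 25.8, against 4.09, 5.95 and 6.70. In both, as in the class II genes, knockout-labelled libraries 2 and 3 were the highest. Cd86, a ligand of CD28, was instead close in all 3 knockout-labelled libraries, at 299, 309 and 365, against 188, 281 and 209 in controls (log2 fold change 0.54, limma, adjusted p = 0.0799). Its groups did not overlap, which was the case for 12.0% of all genes tested in that direction. Cd80 went the other way, at 69.5, 47.9 and 68.4, against 84.8, 82.3 and 75.4, and Icosl, the ligand of ICOS, measured 159, 299 and 274, against 350, 227 and 369.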
